A study of Homo sapiens with 4 samples.

Results

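The 42 genes described here are interferon-stimulated genes together with the receptors, transcription factors and RNA sensors that control them. They were taken by gene symbol from a list of names, and all 42 were present among the 26348 genes of the deposited expression table. RNA was sequenced from A549 cells, which come from a non-small cell lung carcinoma, and from 293T cells, which come from human embryonic kidney, are epithelial and carry a viral T antigen. The groups were A549 cells exposed to a magnetic field for 2 h, A549 control cells that received no field, 293T cells exposed for 2 h and 293T control cells, each with 3 libraries. Each group was a single sample with 3 replicates, and no source says whether these came from different cultures. The p-values therefore cover just the variation among the libraries sequenced, part or all of which may be technical. The labels name no interferon, virus or other agent in any group, so the levels are those of cells with no stated stimulus. Neither the strength of the field nor its source or frequency, nor the interval from exposure to RNA isolation, was given in the sources used here.

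Interferons of type I bind a receptor made of IFNAR1 and IFNAR2, whose associated kinases phosphorylate STAT proteins. STAT2 then joins a partner STAT protein and IRF9 in a complex that binds the interferon-stimulated response element (ISRE) in the promoters of antiviral genes. IRF3 and IRF7 act one step earlier, where sensors of foreign nucleic acid turn on the interferon genes themselves, and many of the proteins of this pathway are in turn products of interferon-stimulated genes. Epithelial cells of the lung and kidney hold the pathway at a low resting level until a virus or interferon arrives.

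The libraries held 37171616 to 38883963 recovered fragment counts each. Values are FPKM, fragments scaled to gene length and library size, and a lower FPKM in bulk RNA does not tell fewer transcripts in each cell from fewer cells that make them. All 12 markers of A549 averaged at least 1 FPKM in both A549 groups, where they summed to 4779 to 4901 FPKM in the exposed and 4728 to 4857 FPKM in the control libraries, against 8.55 to 12.4 FPKM over the 293T libraries. Markers of 293T summed to 186 to 201 FPKM in exposed and 179.9 to 183 FPKM in control 293T libraries, against 20.8 to 21.9 FPKM over the A549 libraries, and 10 of these 12 reached 1 FPKM in 293T while PAX2 and SALL4 did not. Of 13 markers of blood, endothelial, stromal and liver cells, CD68 made up most of the sum in A549 (23.0 to 26.5 FPKM exposed, 25.2 to 25.6 FPKM control) and the defining markers PTPRC and CD3E were at or near 0 in all 12 libraries. Mitochondrial transcripts took 7.69% to 7.96% of counts in exposed and 8.35% to 9.28% in control A549 libraries, and 4.37% to 4.45% in exposed and 4.85% to 5.21% in control 293T libraries. Replicate 3 of the exposed group lay nearest to the controls on the first principal component in both lines, at 9.91 against 15.7 and 18.2 for the other exposed A549 libraries and at 6.51 against 14.7 and 16.1 for the other exposed 293T libraries.

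Genes with at least 0.5 FPKM in at least 3 libraries were tested with limma on log2(FPKM + 1), and 38 of the 42 members passed this filter. A change was called at a Benjamini-Hochberg adjusted p under 0.05 over all 13811 genes tested, and fold changes on this scale understate the change of genes with low values. In exposed A549 cells 18 of the 38 members fell and 2 rose, against a background of 26.9% of all genes tested that fell and 13.3% that rose (40.2% either way). The members were chosen with earlier results of these data known, so their counts beside all genes are a description. The largest falls were those of SLFN5, IFIT1, IFIT2, IFIT3 and PARP9, and the rises were those of STAT2 and EIF2AK2, with sizes compared on the log2(FPKM + 1) scale. In exposed 293T cells 7 members fell and 3 rose, against 24.2% of all genes that fell and 13.7% that rose (38% either way), and the rises were those of IFI27, IRF9 and ISG15. After quantile normalization the 293T split was 5 higher and 5 lower, and with all libraries centred to a common median it was 5 higher and 6 lower. Over all genes the 293T counts moved the same way, to 2403 higher and 2620 lower by quantile normalization, and to 2271 higher and 2720 lower by median centring, beside 1897 higher and 3346 lower as reported. In A549, quantile normalization lost the falls of IFNAR2, IRF7, MX1 and ISG20, and median centring those of IFNAR2, MX1, ISG20 and SLFN11. Over all genes, A549 had 2400 higher and 2786 lower calls by quantile normalization, and 2695 higher and 2525 lower by median centring. The reported A549 counts were 1837 higher and 3711 lower. Over the settings that left out no library, 13 to 19 members fell in A549 and 2 to 3 rose. The median log2 fold change of the members was -0.16 in A549 and -0.04 in 293T, beside -0.04 and -0.03 over all genes tested. In A549 the exposed and control libraries did not overlap for 22 members (57.9%), beside 49.7% of all genes tested, and in 293T for 14 members (36.8%), beside 50%. Of the 38, 12 had no 293T library at 0.5 FPKM and entered the test through A549 alone. On log2(FPKM + 1) these had little room to change in 293T, and none was called there. The 293T counts, median and overlap are therefore a description. Leaving out exposed replicate 3 left 2 rises and 16 falls in A549, and 2 rises and 8 falls in 293T. With the sum of each library set without mitochondrial genes, 19 members fell and 2 rose in A549, and 7 fell and 2 rose in 293T. Under that setting 4474 of all genes fell and 1432 rose in A549, and 3781 fell and 1577 rose in 293T.

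**Figure D1:**
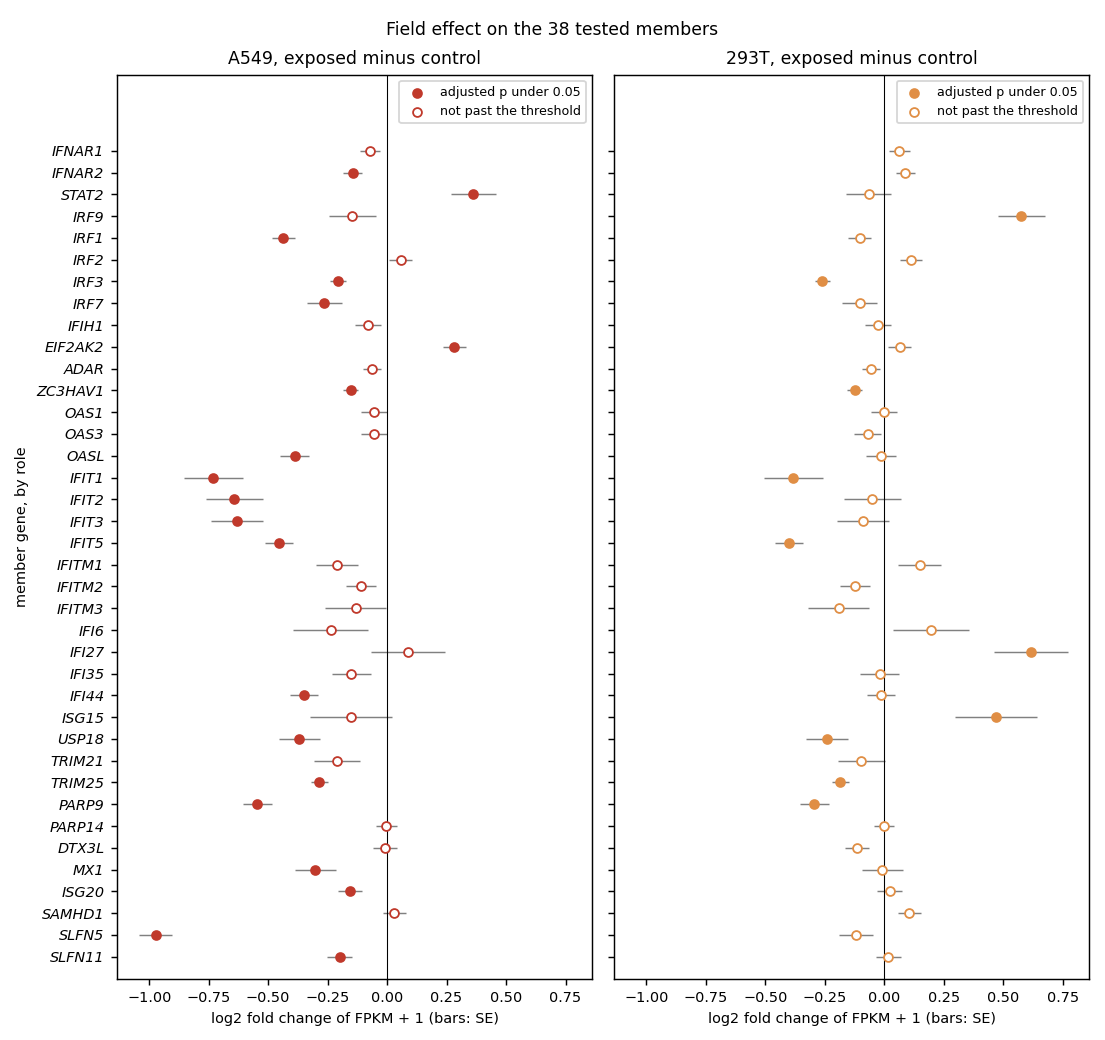
Log2 fold change of FPKM + 1 (x axis, exposed minus control) of the 38 tested members (y axis, by role) in A549 (left) and 293T (right). Points are limma estimates, bars are standard errors, and filled points passed an adjusted p of 0.05; SLFN5 at -0.97 in A549 lies farthest to the left, and IFI27 at 0.62 in 293T farthest to the right.

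Of the receptor genes, IFNAR1 did not pass the test in either line, and IFNAR2 fell in A549. IFNAR1 had 8.59, 8.47 and 9.13 FPKM in exposed A549 cells, against 9.78, 9.01 and 8.90 FPKM in control A549 cells (log2 fold change -0.07, SE 0.043, adjusted p = 0.220). In 293T it had 15.1, 15.3 and 15.6 FPKM exposed and 14.5, 14.3 and 15.2 FPKM control (log2 fold change 0.06, SE 0.043, adjusted p = 0.277). IFNAR2 had 7.98, 8.05 and 8.41 FPKM in exposed A549 cells, against 8.85, 8.96 and 9.54 FPKM in control A549 cells (log2 fold change -0.14, SE 0.040, adjusted p = 0.0128). The 3 exposed libraries lay just below the 3 controls, and without control replicate 3 the call was lost (adjusted p = 0.0614), as it was after median centring (adjusted p = 0.112). In 293T, IFNAR2 had 7.45, 7.62 and 7.31 FPKM in exposed cells, against 6.73, 7.09 and 7.03 FPKM in control cells (log2 fold change 0.09, SE 0.040, adjusted p = 0.1005). The direction was the opposite of that in A549, and the 293T change passed the test after quantile normalization or median centring (lowest adjusted p = 0.0439). The difference of the effects (A549 minus 293T) was log2 -0.23, SE 0.057, adjusted p = 0.0194. Without A549 control replicate 3 or 293T control replicate 1, that difference had an adjusted p of 0.0506 or 0.0512. In the GENCODE v29 annotation 44.2% of the exon bases of IFNAR2 are shared with a second protein-coding gene model on the same strand and 39.1% with the antisense gene IL10RB-DT, which averaged at most 0.0367 FPKM in any group.

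Of the transcription factors, IRF1, IRF3 and IRF7 fell in A549, where STAT2 rose, and in 293T IRF3 fell and IRF9 rose. IRF1, a factor that interferon gamma induces strongly, had 10.8, 10.1 and 10.6 FPKM in exposed A549 cells, against 14.2, 14.9 and 14.5 FPKM in control A549 cells. All exposed libraries were below all controls, at 10.5 ± 0.345 and 14.5 ± 0.366 FPKM on average (SD, n = 3 each; log2 fold change -0.44, SE 0.049, adjusted p = 4.14e-05). In 293T, IRF1 had 1.64, 1.53 and 1.75 FPKM exposed and 1.87, 1.69 and 1.96 FPKM in control cells, which overlapped (log2 fold change -0.10, SE 0.049, adjusted p = 0.119), and the effects differed between the lines by log2 -0.33, SE 0.069, adjusted p = 0.00930. IRF1 shares 1716 exon bases with a transcript on the opposite strand. With a pseudocount of 0.1 and with limma-voom on recovered counts the difference did not pass (adjusted p = 0.0563 and 0.118).

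STAT2 and IRF9 are partners in the ISRE-binding complex, and each rose in a different line. STAT2 had 9.09, 11.3 and 7.97 FPKM in exposed A549 cells, against 7.02, 6.96 and 7.20 FPKM in control A549 cells (log2 fold change 0.36, SE 0.095, adjusted p = 0.00939). The controls lay within a narrow range and the exposed libraries were spread above it, with replicate 2 highest. STAT2 in 293T had 5.77, 7.14 and 6.68 FPKM exposed and 6.82, 6.61 and 7.13 FPKM in control cells (log2 fold change -0.07, SE 0.095, adjusted p = 0.636), and the difference of the effects did not pass the test (log2 0.43, SE 0.13, adjusted p = 0.0569), although it did after median centring, with limma-voom and without A549 exposed replicate 3 (lowest adjusted p = 0.0132). IRF9 had 4.16, 4.56 and 4.27 FPKM in exposed 293T cells, against 2.45, 2.03 and 3.35 FPKM in control 293T cells (log2 fold change 0.58, SE 0.099, adjusted p = 9.05e-04). Every exposed 293T library was above every control. In A549 the order was the reverse, with 12.6, 11.6 and 11.6 FPKM exposed and 13.7, 13.7 and 12.7 FPKM in control cells, but the change did not pass the test (log2 fold change -0.15, SE 0.099, adjusted p = 0.270). The difference of the IRF9 effects was log2 -0.72, SE 0.14, adjusted p = 0.00658, and it passed the threshold under all 22 alternatives run for it. Since 48.4% of the exon bases of IRF9 are shared with a second gene model on the same strand, its value may include fragments of both.

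Both factors that turn on interferon genes were lower in exposed A549 cells. IRF3, which is present in most resting cells, fell in both lines, with 35.8, 35.3 and 33.6 FPKM exposed and 40.4, 39.6 and 41.1 FPKM control in A549 (log2 fold change -0.21, SE 0.032, adjusted p = 3.48e-04). In 293T, IRF3 had 19.9, 19.5 and 19.1 FPKM exposed and 23.5, 23.6 and 23.4 FPKM control (log2 fold change -0.26, SE 0.032, adjusted p = 1.36e-04). The groups did not overlap in either line, and the effects did not differ between the lines past the threshold (log2 0.05, SE 0.045, adjusted p = 0.490). IRF3 shares 19.3% of its exon bases with BCL2L12 on the opposite strand, which fell in 293T (log2 fold change -0.19, adjusted p = 0.0256) and had a log2 fold change of -0.10 in A549 (adjusted p = 0.229). IRF7, itself interferon-inducible, had 2.57, 2.24 and 2.37 FPKM in exposed A549 cells, against 3.11, 3.49 and 2.66 FPKM in control A549 cells (log2 fold change -0.26, SE 0.075, adjusted p = 0.0144). Without A549 exposed replicate 2 or A549 control replicate 2 its adjusted p was 0.0550 or 0.0621, and with a pseudocount of 0.1 it was 0.0943. In 293T, IRF7 had 0.222, 0.290 and 0.326 FPKM exposed and 0.407, 0.277 and 0.445 FPKM control, with overlap (log2 fold change -0.10, SE 0.075, adjusted p = 0.304). IRF2, a repressor of interferon-inducible promoters, had 1.94, 1.87 and 1.70 FPKM exposed and 1.84, 1.63 and 1.71 FPKM control in A549 and did not pass the test (log2 fold change 0.06, SE 0.048, adjusted p = 0.381). In 293T, IRF2 had 0.504, 0.513 and 0.521 FPKM exposed and 0.452, 0.370 and 0.377 FPKM control (log2 fold change 0.11, SE 0.048, adjusted p = 0.0844), and 5 alternatives called it higher.

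**Figure D2:**
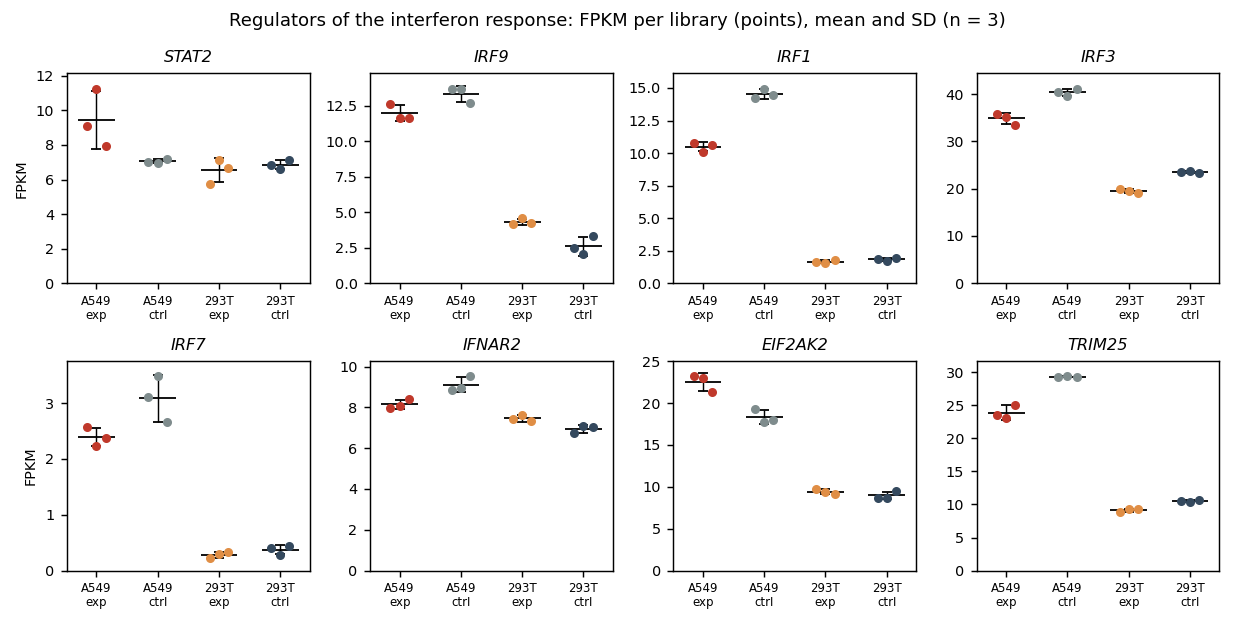
FPKM (y axis, from 0) of 8 regulators in each library (points) of exposed (exp) and control (ctrl) cells of A549 and 293T, with the mean (line) and SD (bar) of 3 libraries. IRF1 lay at 10.1 to 10.8 FPKM in exposed and 14.2 to 14.9 FPKM in control A549 cells, while IRF9 was higher in exposed than in control 293T cells, at 4.16 to 4.56 against 2.03 to 3.35 FPKM.

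Among the RNA sensors, only EIF2AK2 and ZC3HAV1 of the 4 tested passed the test in A549, in opposite directions. EIF2AK2 encodes PKR, a kinase that double-stranded RNA activates and that then halts translation. It had 23.2, 23.0 and 21.3 FPKM in exposed A549 cells, against 19.3, 17.7 and 18.0 FPKM in control A549 cells (log2 fold change 0.28, SE 0.048, adjusted p = 6.35e-04). The groups were separate, and the rise passed the threshold under all 23 alternatives run for it. In 293T the gene averaged 9.43 ± 0.304 FPKM exposed and 8.97 ± 0.458 FPKM control (SD, n = 3 each; log2 fold change 0.07, SE 0.048, adjusted p = 0.315), and the effects did not differ past the threshold (log2 0.22, SE 0.068, adjusted p = 0.0560), except after median centring, with limma-voom, without A549 exposed replicate 3 and without A549 control replicate 1. The neighbouring gene GPATCH11, which shares 35 exon bases with EIF2AK2 on the other strand, was also higher in exposed A549 cells (log2 fold change 0.29, adjusted p = 9.30e-04). The RefSeq promoter of EIF2AK2, the member of this group that rose, is printed 5′ to 3′ with the ISRE in capitals, from 250 bases before to 50 after the start, at chr2:37156931-37157230 on the minus strand of GRCh38.p14.
EIF2AK2: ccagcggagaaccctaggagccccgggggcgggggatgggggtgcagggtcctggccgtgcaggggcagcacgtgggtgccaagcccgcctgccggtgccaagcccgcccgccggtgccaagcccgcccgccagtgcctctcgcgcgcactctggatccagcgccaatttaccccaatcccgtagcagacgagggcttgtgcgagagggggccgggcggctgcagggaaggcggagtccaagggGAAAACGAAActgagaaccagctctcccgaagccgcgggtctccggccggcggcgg

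ZC3HAV1 (ZAP), which binds CpG-rich viral RNA, fell by a small amount in both lines. It had 14.5, 13.8 and 14.4 FPKM exposed and 15.98, 15.8 and 15.96 FPKM control in A549 (log2 fold change -0.15, SE 0.031, adjusted p = 0.00209). In 293T it had 16.01, 16.3 and 16.5 FPKM exposed and 17.8, 18.1 and 17.5 FPKM control (log2 fold change -0.12, SE 0.031, adjusted p = 0.00827). The libraries of the groups did not overlap in either line. ADAR, which edits adenosines in double-stranded RNA, had the highest FPKM of all members in both lines, at 61.1 ± 2.06 exposed and 63.9 ± 2.24 control in A549 and 71.5 ± 2.39 exposed and 74.3 ± 2.26 control in 293T (SD, n = 3 each), and passed the test in neither line (adjusted p = 0.208 and 0.287). IFIH1 (MDA5), a cytoplasmic sensor of long double-stranded RNA, averaged 1.67 ± 0.00883 FPKM in exposed and 1.82 ± 0.229 FPKM in control A549 cells (log2 fold change -0.08, SE 0.055, adjusted p = 0.285) and was at most 0.13 FPKM in any 293T library.

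The IFIT genes, whose products bind viral RNA or translation factors and lie next to each other on chromosome 10, all fell in A549. IFIT1 had 1.14, 0.979 and 1.09 FPKM in exposed A549 cells, against 2.10, 3.51 and 1.89 FPKM in control A549 cells (log2 fold change -0.73, SE 0.12, adjusted p = 6.29e-04). IFIT2 had 1.21, 0.741 and 1.47 FPKM exposed and 2.05, 2.94 and 2.00 FPKM control (log2 fold change -0.64, SE 0.12, adjusted p = 0.00115). IFIT3 had 1.96, 1.51 and 1.95 FPKM exposed and 2.95, 4.35 and 2.83 FPKM control (log2 fold change -0.63, SE 0.11, adjusted p = 7.41e-04). In these 3 genes the groups did not overlap, control replicate 2 was the highest library and exposed replicate 2 the lowest. Without control replicate 2 the log2 fold changes were -0.53 for IFIT1, -0.52 for IFIT2 and -0.48 for IFIT3, with adjusted p of 1.11e-04, 0.00423 and 8.50e-04. IFIT5, which binds RNA without the partners that the others form, had 3.43, 2.90 and 3.45 FPKM exposed and 5.004, 4.85 and 4.63 FPKM control (log2 fold change -0.45, SE 0.060, adjusted p = 1.15e-04). Its control libraries were close together, with replicate 1 highest, and all 4 falls in A549 passed the threshold under every alternative run for them.

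In 293T, IFIT1 and IFIT5 fell as well, while IFIT2 and IFIT3 were near the limit of detection. IFIT5, one of 2 tested members whose control levels did not differ between the lines past the threshold, had 3.39, 3.29 and 3.33 FPKM in exposed 293T cells, against 4.45, 5.13 and 4.62 FPKM in control 293T cells (log2 fold change -0.40, SE 0.060, adjusted p = 4.02e-04). The difference of its effects did not pass the test (log2 -0.05, SE 0.084, adjusted p = 0.734). IFIT1 had 0.515, 0.552 and 0.681 FPKM in exposed and 1.05, 1.10 and 1.05 FPKM in control 293T cells (log2 fold change -0.38, SE 0.12, adjusted p = 0.0287). The groups were separate, but the call was lost without any 1 of 5 of the 6 libraries of 293T, all but exposed replicate 3 (adjusted p up to 0.0861), and when genes with low values were kept in (adjusted p = 0.0820). IFIT2 had 1 to 3 fragments in each exposed and 3 to 13 in each control 293T library, and IFIT3 6 to 9 in exposed and 9 to 23 in control. In the RefSeq annotation the whole spans of IFIT1, IFIT2 and IFIT3 lie within that of LIPA on the other strand, but the exons shared in GENCODE v29 are 65 bases of IFIT2. LIPA, a lysosomal lipase, averaged 32.3 ± 0.341 FPKM in exposed and 30.9 ± 0.140 FPKM in control A549 cells (SD, n = 3 each) and did not pass the test (log2 fold change 0.06, adjusted p = 0.114).

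The RefSeq promoters of the 3 IFIT genes that were matched are printed to show how the ISREs stand in genes that fell, 5′ to 3′ on the plus strand of GRCh38.p14, from 250 bases before to 50 after the start, with each ISRE (GAAA, any 2 bases, GAAA, or the reverse complement) in capitals. They lie at chr10:89392373-89392672 for IFIT1, chr10:89327747-89328046 for IFIT3 and chr10:89414318-89414617 for IFIT5.
IFIT1: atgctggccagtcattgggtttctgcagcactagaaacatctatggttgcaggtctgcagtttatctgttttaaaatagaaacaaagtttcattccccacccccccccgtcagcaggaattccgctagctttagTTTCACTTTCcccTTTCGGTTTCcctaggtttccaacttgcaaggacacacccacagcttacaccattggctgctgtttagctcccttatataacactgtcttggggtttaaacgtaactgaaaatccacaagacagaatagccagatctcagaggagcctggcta
IFIT3: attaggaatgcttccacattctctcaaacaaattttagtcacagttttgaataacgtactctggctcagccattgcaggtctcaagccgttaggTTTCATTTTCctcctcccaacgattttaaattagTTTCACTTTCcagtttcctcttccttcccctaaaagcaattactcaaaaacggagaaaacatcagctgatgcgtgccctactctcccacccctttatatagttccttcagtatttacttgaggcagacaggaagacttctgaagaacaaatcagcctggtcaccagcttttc
IFIT5: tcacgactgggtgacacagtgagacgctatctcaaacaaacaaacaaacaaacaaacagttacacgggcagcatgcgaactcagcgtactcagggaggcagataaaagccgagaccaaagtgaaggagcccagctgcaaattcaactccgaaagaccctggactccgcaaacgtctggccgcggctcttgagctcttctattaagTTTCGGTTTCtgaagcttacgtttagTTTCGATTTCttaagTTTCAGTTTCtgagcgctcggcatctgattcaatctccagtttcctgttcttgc

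IFIT1 and IFIT3 each had a pair of ISREs well upstream of the start, and IFIT5 had 3 within 60 bases of it. The positions of the first bases were -116 and -103 in IFIT1, -156 and -122 in IFIT3, and -45, -19 and -4 in IFIT5, counted from the first base of the gene, with upstream negative.

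Of the oligoadenylate synthetases, which activate RNase L when they meet double-stranded RNA, OASL fell in A549 while OAS1 and OAS3 did not pass the test. OASL, a member of the family without synthetase activity, had 0.681, 0.566 and 0.542 FPKM in exposed A549 cells, against 1.21, 1.20 and 0.874 FPKM in control A549 cells. Each exposed library was below each control (log2 fold change -0.39, SE 0.061, adjusted p = 3.97e-04). OAS3 was the most highly expressed of the family, at 28.8 ± 0.990 FPKM in exposed and 29.9 ± 1.53 FPKM in control A549 cells (SD, n = 3 each; log2 fold change -0.06, SE 0.056, adjusted p = 0.483). OAS1 had 10.03, 8.83 and 8.70 FPKM exposed and 9.61, 10.05 and 9.08 FPKM control in A549 (log2 fold change -0.06, SE 0.054, adjusted p = 0.461). In 293T, OASL had 3 to 5 fragments in each exposed and 3 to 8 in each control library, and OAS1 at most 2 in any. OAS2 did not pass the filter and averaged 0.0996 ± 0.00566 FPKM in exposed and 0.135 ± 0.0405 FPKM in control A549 cells.

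The IFITM genes, whose membrane proteins hinder the entry of viruses, did not pass the test in either line. In A549 the log2 fold changes were -0.21 for IFITM1, -0.11 for IFITM2 and -0.13 for IFITM3, with adjusted p from 0.0804 to 0.456. In 293T they were 0.15, -0.12 and -0.19, with adjusted p from 0.140 to 0.264. IFITM1 was called lower in A549 when A549 control replicate 2 was left out (adjusted p = 0.0352), and IFITM3 lower in 293T when exposed replicate 1 was left out (adjusted p = 0.0332). These genes are close copies of each other, and IFITM1 and IFITM2 share 351 exon bases, so fragments may have been divided between them.

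Of the IFI genes, IFI44 fell in A549 and IFI27 rose in 293T. IFI44, which encodes a cytoplasmic protein, had 1.084, 1.11 and 1.49 FPKM in exposed A549 cells, against 1.88, 1.82 and 1.77 FPKM in control A549 cells (log2 fold change -0.35, SE 0.060, adjusted p = 6.84e-04). The controls were close to each other and above all exposed libraries. In 293T it was listed at 0 in all exposed libraries and had 0 to 2 fragments in the controls. IFI27, which encodes a small mitochondrial protein and is among the genes most strongly induced by interferon alpha, had 1.23, 2.12 and 1.38 FPKM in exposed 293T cells, against 0.666, 0.624 and 0.701 FPKM in control 293T cells (log2 fold change 0.62, SE 0.16, adjusted p = 0.00863). This was the largest change of any tested member in 293T on the log2(FPKM + 1) scale, it rested on 34 to 61 fragments in exposed and 18 to 20 in control libraries, and exposed replicate 2 was the highest. In A549, IFI27 had 2.37, 1.10 and 1.91 FPKM exposed and 1.90, 1.42 and 1.45 FPKM control (log2 fold change 0.09, SE 0.16, adjusted p = 0.717), and the difference of the effects did not pass the test (log2 -0.53, SE 0.22, adjusted p = 0.142). IFI6 and IFI35 did not pass in either line, at 11.95 ± 2.94 FPKM in exposed and 14.1 ± 1.29 FPKM in control A549 cells for IFI6 and 13.5 ± 0.782 FPKM exposed and 15.2 ± 1.61 FPKM control for IFI35 (SD, n = 3 each). IFI44L did not pass the filter, at 0.284 ± 0.0443 FPKM in exposed and 0.332 ± 0.0722 FPKM in control A549 cells.

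ISG15, a ubiquitin-like protein that is conjugated to others, and USP18, the protease that removes it and that also blocks the receptor, moved in different ways. USP18 had 2.44, 2.02 and 1.97 FPKM in exposed A549 cells, against 3.22, 3.39 and 2.59 FPKM in control A549 cells (log2 fold change -0.37, SE 0.087, adjusted p = 0.00529). In 293T it had 4.72, 5.75 and 5.75 FPKM exposed and 6.57, 6.79 and 6.30 FPKM control (log2 fold change -0.24, SE 0.087, adjusted p = 0.0458). The groups did not overlap in either line, but the 293T call was lost under 15 of 23 alternatives. Leaving out 293T exposed replicate 1 raised its adjusted p to 0.187, and leaving out 293T exposed replicate 2 or 293T control replicate 1, 2 or 3 gave 0.0543, 0.103, 0.128 and 0.0669. Without A549 exposed replicate 2 or 3 or A549 control replicate 1, which change only the shared spread, it was 0.0529, 0.0501 and 0.0505.

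ISG15 was called higher in 293T by the smallest margin, and its libraries overlapped. It had 1.73, 2.28 and 2.14 FPKM in exposed 293T cells, against 1.11, 2.11 and 0.616 FPKM in control 293T cells (log2 fold change 0.47, SE 0.17, adjusted p = 0.0482). Control replicate 2 was as high as the exposed libraries, and 17 of 23 alternatives lost the call, among them all that left out 1 library except 293T control replicate 2. Without 293T control replicate 3, the lowest library, the log2 fold change was 0.25 (adjusted p = 0.192), and the other libraries left out gave adjusted p from 0.0537 to 0.143. In A549, ISG15 had 6.64, 7.52 and 6.59 FPKM exposed and 8.28, 7.85 and 7.28 FPKM control (log2 fold change -0.15, SE 0.17, adjusted p = 0.534), and the difference of the effects did not pass the test (log2 -0.62, SE 0.24, adjusted p = 0.118).

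TRIM25, a ubiquitin ligase that activates the RIG-I pathway, fell in both lines. It had 23.6, 23.1 and 25.1 FPKM in exposed A549 cells, against 29.3, 29.4 and 29.3 FPKM in control A549 cells (log2 fold change -0.29, SE 0.036, adjusted p = 9.49e-05). In 293T it had 8.89, 9.27 and 9.24 FPKM exposed and 10.5, 10.3 and 10.7 FPKM control (log2 fold change -0.18, SE 0.036, adjusted p = 0.00209). The groups were separate in both lines, and both falls passed the threshold under all alternatives run for them. TRIM21, an antibody receptor inside the cell, had 8.33, 6.27 and 8.30 FPKM exposed and 7.70, 9.68 and 9.55 FPKM control in A549, with overlap (log2 fold change -0.21, SE 0.098, adjusted p = 0.106).

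PARP9 and DTX3L encode the partners of one complex and their genes start next to each other in opposite directions on chromosome 3, yet only PARP9 passed the test. PARP9, an ADP-ribosyltransferase family member, had 2.49, 2.45 and 2.69 FPKM in exposed A549 cells, against 4.30, 4.19 and 4.03 FPKM in control A549 cells (log2 fold change -0.55, SE 0.062, adjusted p = 4.51e-05). DTX3L, its E3 ubiquitin ligase partner, had 9.44, 8.77 and 9.27 FPKM exposed and 9.497, 9.15 and 9.01 FPKM control (log2 fold change -0.009, SE 0.051, adjusted p = 0.929). The PARP9 libraries were separate, those of DTX3L overlapped, and the genes share 217 exon bases. The ratio of PARP9 to DTX3L within a library was therefore 0.264, 0.280 and 0.290 in exposed A549 cells, against 0.453, 0.458 and 0.448 in control A549 cells. In 293T, PARP9 also fell, with 0.234, 0.350 and 0.347 FPKM exposed and 0.752, 0.494 and 0.579 FPKM control (log2 fold change -0.29, SE 0.062, adjusted p = 0.00308), and DTX3L had 0.975, 0.972 and 1.15 FPKM exposed and 1.25, 1.26 and 1.09 FPKM control (log2 fold change -0.11, SE 0.051, adjusted p = 0.1002). PARP9 stayed under 1 FPKM in all 293T libraries, and the ratio to DTX3L was 0.240, 0.360 and 0.302 in exposed and 0.604, 0.393 and 0.533 in control cells. PARP14, another member of the family, differed least of all tested members in A549, at 9.34 ± 0.470 FPKM exposed and 9.35 ± 0.210 FPKM control (SD, n = 3 each; log2 fold change -0.0025, SE 0.043, adjusted p = 0.981).

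SLFN5 had the largest fall of all members in A549 on the log2(FPKM + 1) scale, while by the ratio of mean FPKM it came after IFIT1 (2.34-fold lower in exposed cells). SLFN5 and SLFN11 belong to the Schlafen family, and SLFN11 is known to restrict the translation of viral proteins and to sensitize cells to DNA damage. SLFN5 had 2.88, 2.77 and 3.61 FPKM in exposed A549 cells, against 7.36, 6.82 and 6.81 FPKM in control A549 cells. The exposed libraries averaged 3.09 ± 0.460 FPKM and the controls 6.997 ± 0.315 FPKM (SD, n = 3 each), 2.27-fold lower in exposed cells (log2 fold change -0.97, SE 0.071, adjusted p = 2.30e-06). Exposed replicate 3 lay closest to the controls, and the fall passed the threshold under all 23 alternatives run for it. SLFN11, which lies in the same Schlafen cluster on chromosome 17, had 7.39, 6.51 and 6.75 FPKM exposed and 8.44, 8.14 and 7.57 FPKM control in A549, a smaller fall with no overlap (log2 fold change -0.20, SE 0.053, adjusted p = 0.00964). It no longer passed with a pseudocount of 0.1 (adjusted p = 0.192) or after median centring (adjusted p = 0.0518). The ratio of SLFN5 to SLFN11 was 0.389, 0.426 and 0.536 in exposed A549 cells, against 0.872, 0.838 and 0.899 in control A549 cells, so the genes did not change equally. In 293T, SLFN5 had 0.321, 0.256 and 0.354 FPKM exposed and 0.362, 0.451 and 0.458 FPKM control, separate but not past the threshold (log2 fold change -0.12, SE 0.071, adjusted p = 0.209), and SLFN11 was at most 0.0724 FPKM in any 293T library. SLFN5 overlaps an uncharacterised locus over 1080 bases, which averaged 0.179 ± 0.0829 FPKM in exposed and 0.286 ± 0.0377 FPKM in control A549 cells.

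Of the other restriction factors, MX1 and ISG20 fell in A549. MX1, a dynamin-like GTPase that blocks influenza virus, had 0.774, 0.789 and 0.537 FPKM in exposed A549 cells, against 0.965, 1.45 and 0.896 FPKM in control A549 cells (log2 fold change -0.30, SE 0.086, adjusted p = 0.0143). Control replicate 2 was the highest library, as it was for IFIT1, IFIT2 and IFIT3, and without it the log2 fold change was -0.19 (adjusted p = 0.0409). The MX1 call was lost under 4 of 22 alternatives (adjusted p up to 0.0797). These were quantile normalization, median centring, each line fitted alone, and leaving out exposed replicate 3 (adjusted p = 0.0588). ISG20, an exonuclease that degrades single-stranded RNA, had 1.06, 1.21 and 1.14 FPKM exposed and 1.27, 1.33 and 1.56 FPKM control (log2 fold change -0.16, SE 0.052, adjusted p = 0.0301). The groups were just separate, and 8 of 22 alternatives lost the call, with adjusted p of 0.106, 0.0587 and 0.131 without exposed replicate 1, exposed replicate 3 and control replicate 3. SAMHD1, which depletes the nucleotides that viruses need to copy DNA, did not pass in A549 (log2 fold change 0.03, SE 0.050, adjusted p = 0.685) or 293T (log2 fold change 0.11, SE 0.050, adjusted p = 0.114). BST2 (tetherin), which holds budding virus at the cell surface, did not pass the filter, with 0.441, 0.423 and 0.492 FPKM in exposed and 0.462, 0.490 and 0.592 FPKM in control A549 cells, and DHX58, a relative of the RIG-I sensor, had at most 9 fragments in any library.

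**Figure D3:**
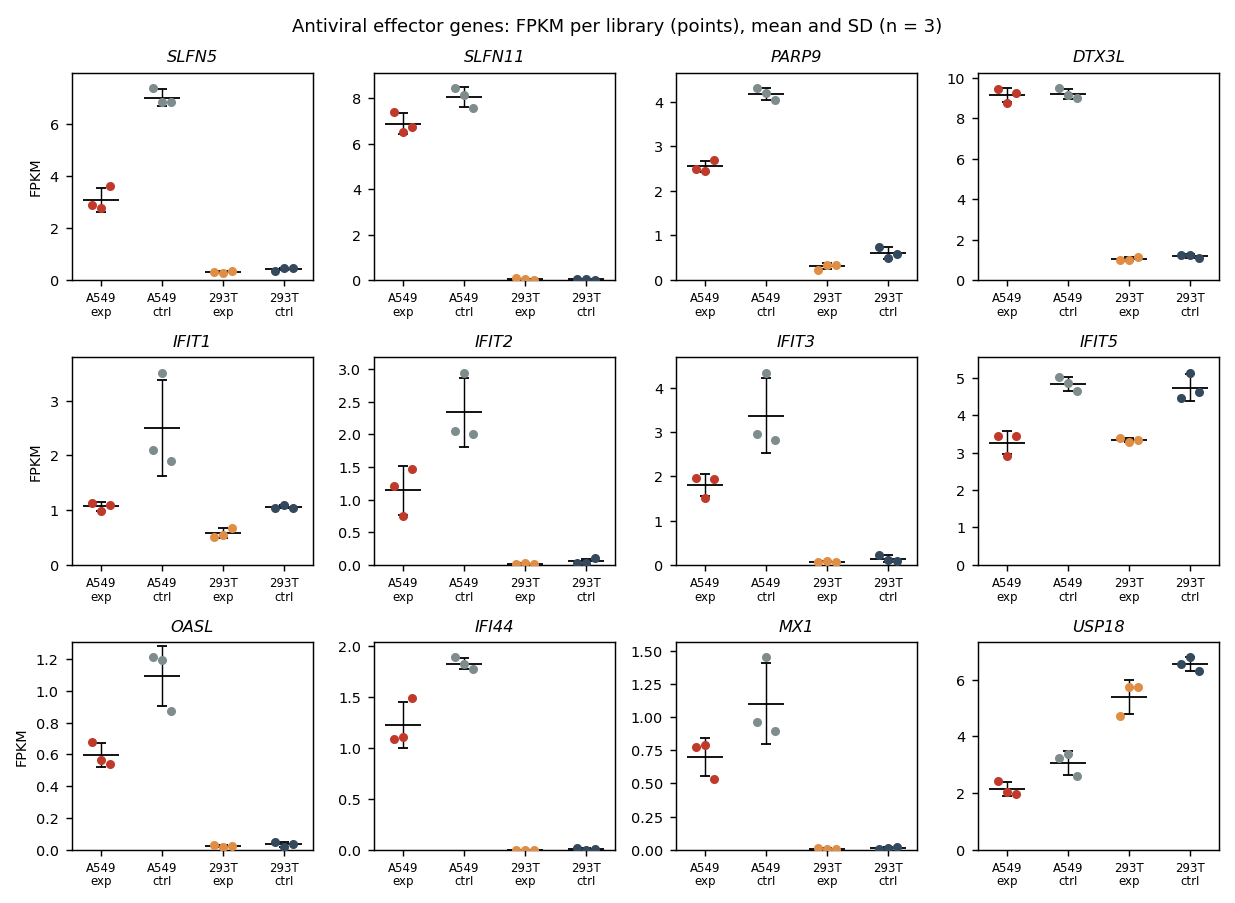
FPKM (y axis, from 0, a separate scale in each panel) of 12 antiviral effector genes in each library (points) of exposed (exp) and control (ctrl) cells of A549 and 293T, with the mean (line) and SD (bar) of 3 libraries. SLFN5 lay at 2.77 to 3.61 FPKM in exposed and 6.81 to 7.36 FPKM in control A549 cells, PARP9 was lower in exposed A549 cells while DTX3L overlapped, and control replicate 2 stood highest for IFIT1, IFIT2, IFIT3 and MX1.

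Across the lines, 7 members fell in both, namely IFIT1, IFIT5, IRF3, USP18, TRIM25, PARP9 and ZC3HAV1, beside 14.2% of all genes tested. No member rose in both lines, beside 6.32% of all genes, and none was called in opposite directions, beside 1.11%. The 12 members with no 293T library at 0.5 FPKM had little room to be called in both lines. Whether the effects themselves differed was tested as A549 minus 293T, and 8 members passed, all with a lower value in A549, beside 7.03% of all genes lower and 5.51% higher (12.5% either way). They were SLFN5 (log2 -0.85, SE 0.10, adjusted p = 5.10e-04), IFNAR2, IRF9 and IRF1 as given above, and OASL, IFIT2, IFIT3 and IFI44. SLFN5 and the last 4 had no 293T library at 0.5 FPKM and passed the filter through A549 alone. For these 5 of the 8, log2(FPKM + 1) kept the 293T effect small, so the difference mostly repeated the fall in A549. OASL (log2 -0.38, SE 0.087, adjusted p = 0.0158), IFIT2 (log2 -0.59, SE 0.17, adjusted p = 0.0389), IFIT3 (log2 -0.54, SE 0.15, adjusted p = 0.0398) and IFI44 (log2 -0.33, SE 0.085, adjusted p = 0.0234) were all close to 0 in 293T, where log2(FPKM + 1) leaves little room for a fall. By the ratio of mean FPKM, IFIT3 was 1.87-fold lower in exposed A549 cells and 1.95-fold lower in exposed 293T cells, where the change did not pass. With a pseudocount of 0.1 in place of 1, OASL, IFIT2, IFIT3 and IFI44 no longer passed (adjusted p = 0.0635, 0.281, 0.446 and 0.172), while SLFN5 did (-0.81, adjusted p = 0.0156). With limma-voom on recovered counts, where a small offset added to the counts sets the floor, the difference was 0.27 for IFIT2 (adjusted p = 0.914), and IFIT3 (-0.07, adjusted p = 0.968) and OASL (-0.49, adjusted p = 0.704) did not pass. IFI44, at 0 in all exposed 293T libraries, had 0.71 by that method (adjusted p = 0.656), a value that the offset sets. The difference of SLFN5 was -0.74 by that method (adjusted p = 0.0693), and those of IRF9 and IFNAR2 passed the threshold by it. Leaving out A549 exposed replicate 2 reduced the calls of a difference to 5.

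The lines also differed in how much of the pathway they expressed without the field. In control cells, 38 of the 42 members averaged at least 1 FPKM in A549, against 22 in 293T, and all of those 22 did so in A549 too. In A549 control cells the highest levels were those of ADAR, IRF3, IFITM2, OAS3 and TRIM25, at 63.9, 40.4, 30.9, 29.9 and 29.3 FPKM. In 293T control cells they were those of ADAR, IRF3, ZC3HAV1, SAMHD1 and IFNAR1, at 74.3, 23.5, 17.8, 16.7 and 14.6 FPKM. OAS3 averaged 29.9 ± 1.53 FPKM in A549 and 0.451 ± 0.0697 FPKM in 293T control cells (SD, n = 3 each), 66.4-fold higher in A549. SLFN11, IRF1 and IRF9 were 284-fold, 7.92-fold and 5.11-fold higher in A549 control cells, where SLFN11 rested on 5 or 6 fragments in each 293T control library. OAS1 and PARP14 averaged 9.58 ± 0.487 and 9.35 ± 0.210 FPKM in A549 control cells, against 1 to 3 fragments in each 293T control library.

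By the test, 30 of 38 members were higher and 6 lower in A549 control than in 293T control cells, against 32.4% of all genes higher and 55.9% lower (88.3% either way). Of the 38, 12 had no 293T library at 0.5 FPKM and entered the test through A549 alone, so they had to differ, and the count is a description. The 6 that were lower were SAMHD1, IFITM1, USP18, IFNAR1, ADAR and ZC3HAV1, and STAT2 and IFIT5 did not pass. SAMHD1 averaged 6.04 ± 0.333 FPKM in A549 and 16.7 ± 0.320 FPKM in 293T control cells (SD, n = 3 each). IFITM1 had 3.58, 2.59 and 2.78 FPKM in A549 and 8.06, 7.74 and 6.69 FPKM in 293T control cells. USP18 averaged 3.07 ± 0.425 FPKM in A549 and 6.56 ± 0.247 FPKM in 293T control cells. The median difference of the members was 1.37 on the log2 scale, beside -0.25 over all genes, which moved to -0.41 in TPM and -0.15 after quantile normalization.

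**Figure D4:**
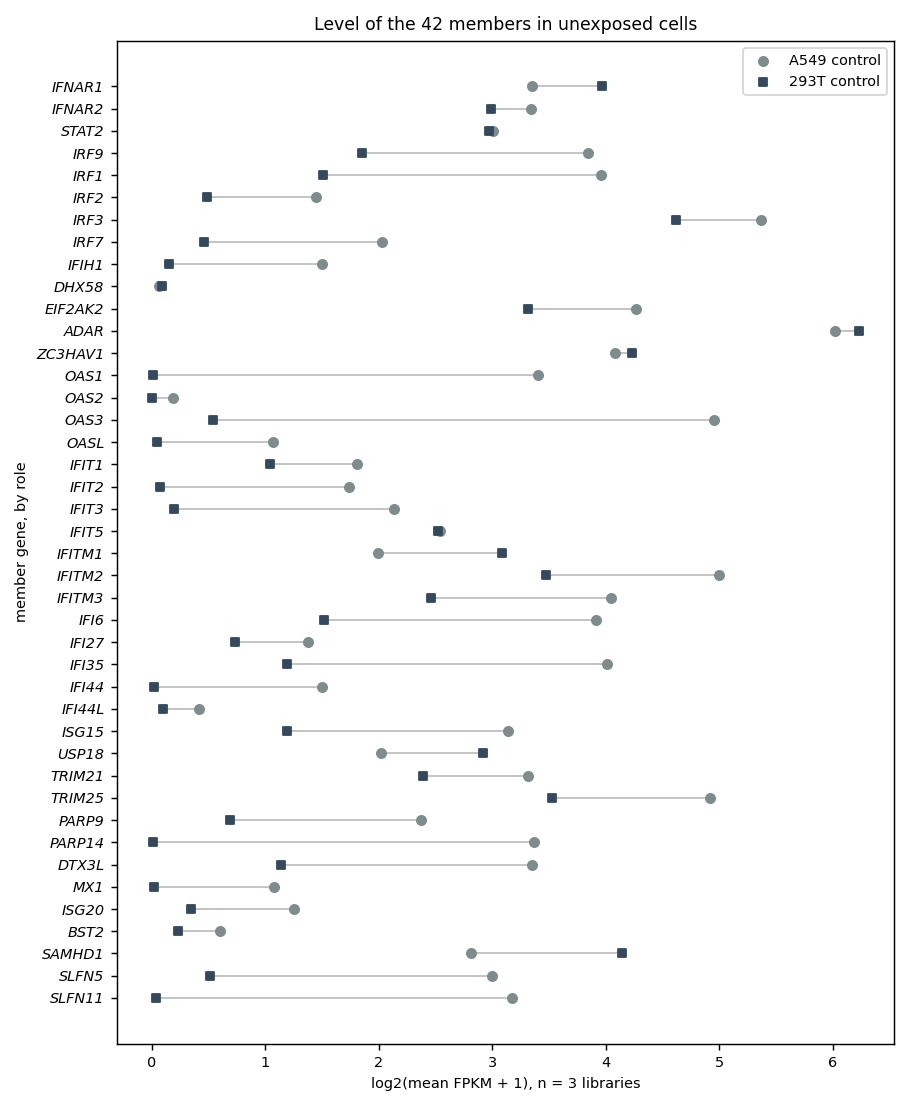
Level of the 42 members (y axis, by role) in control cells as log2 of the mean FPKM of 3 libraries plus 1 (x axis), with circles for A549, squares for 293T and a line between them. Most circles lie to the right of the squares, with the widest gaps at OAS3, OAS1, PARP14 and SLFN11, while SAMHD1, IFITM1 and USP18 lie to the left.

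Promoters in RefSeq (GRCh38.p14) were matched for 31 of the 42 members, each 300 bases long. The windows of IFI27 and ISG20 surround a start that lies inside the gene, not its first base. They were searched on both strands for the ISRE (GAAA, any 2 bases, GAAA), the gamma-activated site (TTCNNNGAA) bound by STAT dimers, and the heat shock element (GAA, TTC and GAA with any 2 bases between neighbours). The ISRE was present in 19 member promoters (61.3%), beside 3.57% of all 35116 promoters in the table, and the gamma-activated site in 10 (32.3%), beside 7.66%. No member promoter held the heat shock element, which 0.490% of all promoters did. The ISRE matches numbered 35, of which 32 began upstream of the start and 13 within 60 bases upstream, and overlapping matches that share bases were counted separately. A match is a run of letters and was not tested as a binding site, and the members belong to this pathway by definition, so their share with an ISRE is a description.

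Genes with an ISRE did not all do the same. In A549, of the tested members with an ISRE in the window, 6 fell, 1 rose and 10 did not pass, and of those with a promoter but no ISRE 5 fell, 1 rose and 6 did not pass. Of the tested members with no promoter matched, 7 fell in A549 (IFNAR2, IRF3, IRF7, OASL, IFIT2, USP18 and SLFN5) and 2 did not pass, so the split leaves these out. In 293T the members with an ISRE numbered 2 that fell, 2 that rose and 13 that did not pass, and those with a promoter but no ISRE 3 that fell, 1 that rose and 8 that did not pass. Of those with no promoter matched, 2 fell in 293T and 7 did not pass. Among the 13, IFIH1, IFIT3, IFI44, PARP14, MX1 and ISG20 had no 293T library at 0.5 FPKM and little room to be called. The same held for OAS1 and SLFN11 among the 8. The search took only matches with exactly 2 bases between, within the window. OAS1 and TRIM25, counted here as having no ISRE, hold GAAACGAAA or its reverse complement, with 1 base between, so the split is approximate. The stretches around an ISRE in members that fell in A549 (IFI44, MX1, ISG20) and in members that did not pass there (OAS3, ISG15, PARP14, DTX3L) are printed with the ISRE in capitals, 5′ to 3′ on the plus strand, to show that the same core occurs in both. They lie at chr1:78649756-78649795 (IFI44), chr21:41420554-41420593 (MX1), chr15:88638932-88638971 (ISG20), chr12:112938447-112938486 (OAS3), chr1:1013369-1013414 (ISG15, with overlapping matches), chr3:122680795-122680834 (PARP14) and chr3:122564317-122564356 (DTX3L).
IFI44: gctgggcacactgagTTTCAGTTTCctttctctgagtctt
MX1: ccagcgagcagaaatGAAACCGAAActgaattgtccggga
ISG20: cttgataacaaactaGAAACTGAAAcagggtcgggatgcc
OAS3: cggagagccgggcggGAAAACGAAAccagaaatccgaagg
ISG15: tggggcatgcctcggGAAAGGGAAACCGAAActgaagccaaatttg
PARP14: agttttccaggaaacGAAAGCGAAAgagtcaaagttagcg
DTX3L: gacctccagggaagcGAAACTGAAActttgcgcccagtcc

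The commonest ISRE letters were GAAACTGAAA, with 9 matches in 8 genes, among them IFI44 and IFIT5 on the opposite strand, ISG20, which fell, and DTX3L, which did not pass. GAAACCGAAA had 6 matches in 6 genes, among them MX1, which fell in A549, and ISG15, which did not pass there.

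**Figure D5:**
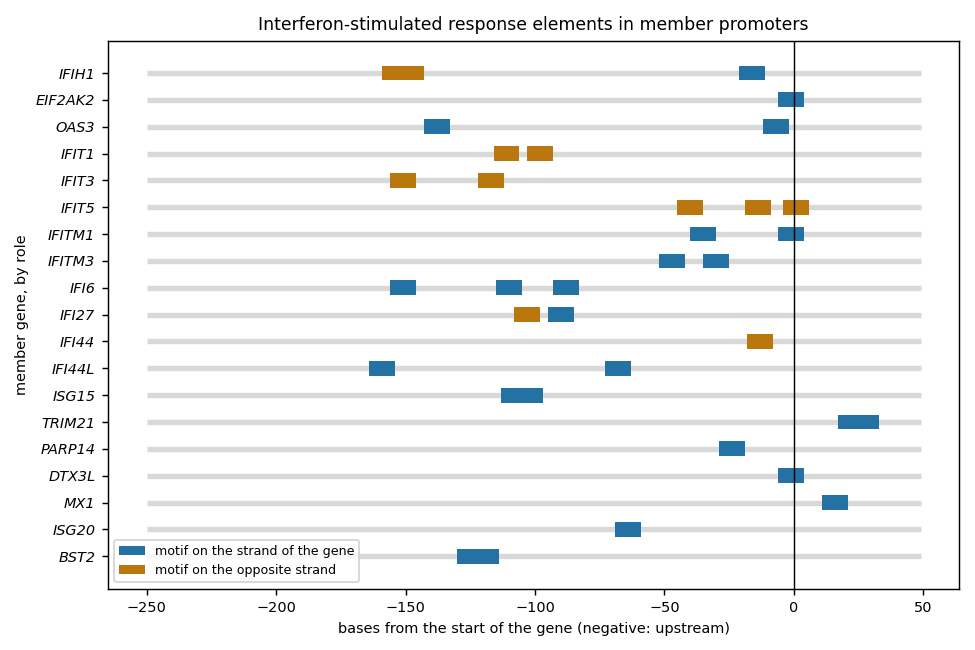
Position of the ISRE matches (coloured blocks, 10 bases each) in the 19 member promoters that hold one (y axis), in bases from the start of the gene (x axis, upstream negative), with grey bars for the 300 bases searched. For IFI27 and ISG20 the start used lies inside the gene, downstream of its first base. IFIT1 and IFIT3 have their matches at -156 to -103, IFIT5, EIF2AK2, OAS3 and DTX3L have one next to or across the start, and those of TRIM21 and MX1 lie after it.

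The rest of the pathway was followed through 82 further genes of interferon signalling and action, of which 79 were listed and 66 tested. This list was also chosen with earlier results of these data known, so its counts are a description. In A549, 30 of the 66 fell and 7 rose, beside 26.9% and 13.3% of all genes tested, with a median log2 fold change of -0.12. In 293T 15 fell and 3 rose, beside 24.2% and 13.7% of all genes, with a median of -0.02. The rises in A549 included CGAS, the sensor of cytoplasmic DNA, at 18.5 ± 4.93 FPKM in exposed and 5.91 ± 0.304 FPKM in control cells (SD, n = 3 each; log2 fold change 1.47, adjusted p = 5.13e-06). The ubiquitin ligase gene TRIM26 (log2 fold change 0.90), the epithelial interferon gene IFNE (0.51) and TRIM56 (0.32) rose as well. SHFL, an inhibitor of viral frameshifting, fell to 3.27 ± 0.2501 FPKM in exposed, against 5.43 ± 0.417 FPKM in control A549 cells (log2 fold change -0.59, adjusted p = 4.24e-05), as did APOL2 (-0.62), IRF5 (-0.30) and the RNA helicase gene ZNFX1 (-0.47). In 293T, the interferon gamma receptor gene IFNGR1 (0.16), IRF2BP2 (0.23) and the phosphatase gene PTPN2 (0.17) rose, and IRF2BP1 (-0.43), PNPT1 (-0.33), CMTR1 (-0.21) and the kinase gene IKBKE (-0.31) fell. The difference of the effects passed for 5 of these genes in the higher and 14 in the lower direction, beside 5.51% and 7.03% of all genes. Some of them, such as CGAS, IFNE, GBP2 and NLRC5, had no 293T library at 0.5 FPKM, so their difference mostly repeated the A549 effect. Others, such as IFNGR1, MAVS and PML, averaged above 1 FPKM in both 293T groups. The counts are therefore a description. Among genes that interferon induces most strongly, RSAD2, MX2, XAF1, CMPK2, CXCL10 and CXCL11 did not pass the filter in these cells.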

How the data were processed

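The measurements are RNA-seq of poly(A) RNA from 4 groups of 3 libraries. The authors deposited FPKM values per gene, and fastp, HISAT2, HTSeq and GRCh38 are named in the submitters' processing notes, while their versions, settings and use of strand are not given in the sources used here. Those deposited FPKM values gave whole fragment counts for 100% of the 26348 genes (tolerance 0.01 counts), with totals that differed by at most 1.046 times, and the depth was therefore near equal. Counts without molecular identifiers carry amplification error that the intervals of the tests see only through the spread of the libraries.

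Genes with at least 0.5 FPKM in 3 libraries (13811, with 12537 removed) were analysed as log2(FPKM + 1) with limma 3.58.1 (R 4.3.3), with a trend in the variance, 1 mean per group over all 12 libraries and 8 residual degrees of freedom. Tests were two-sided, with Benjamini-Hochberg adjustment over all genes tested. The contrasts were exposed minus control in each line, the A549 minus the 293T effect, and A549 control minus 293T control. The fit was tested on simulated data. Shared exon bases come from GENCODE v29, and promoters from RefSeq GRCh38.p14. Values in every library are given for members past the threshold whose higher group averaged 1 FPKM or more and whose groups did not overlap, and for every receptor and transcription factor gene. Other members are named by role, and up to 4 further pathway genes per line and direction are named by smallest adjusted p. The members and lists were chosen with earlier results of these data known. Alternatives were another pseudocount, filter, scaling, variance model, separate lines, a replicate block, limma-voom on recovered counts and leaving out each library.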

Additional observations from a re-analysis of the deposited data

Results flagged for a closer look

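The effects of the field differed between the lines by the test of the difference itself for 8 members, each lower in A549 relative to 293T. On the log2 scale the difference was -0.85 for SLFN5, -0.72 for IRF9, -0.59 for IFIT2, -0.54 for IFIT3, -0.38 for OASL, -0.33 for IFI44, -0.33 for IRF1 and -0.23 for IFNAR2. The estimates for IRF9 and IFNAR2 had opposite signs in the lines, with IRF9 at 11.6 to 12.6 FPKM in exposed and 12.7 to 13.7 FPKM in control A549 cells, and at 4.16 to 4.56 FPKM in exposed and 2.03 to 3.35 FPKM in control 293T cells. SLFN5, IFIT2, IFIT3, OASL and IFI44 averaged under 0.5 FPKM in both 293T groups, where the log2(FPKM + 1) scale compresses any change, and had no 293T library at the 0.5 FPKM of the filter, so they were tested because of their level in A549. With a pseudocount of 0.1 the difference of SLFN5 passed the threshold and those of the other 4 did not, and with limma-voom none of the 5 passed.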

How the results depend on the processing

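Of the 38 single-gene results past the threshold, 23 stayed past it under every alternative run for them, and 15 lost it under at least 1, in 105 of 858 recomputed results. Members called in A549 numbered 20 and were 18 to 21 when 1 library was left out, those in 293T numbered 10 and were 7 to 10, and those that differed between the control lines numbered 36 whichever library was left out. Under the other settings they were 15 to 21 in A549, 7 to 11 in 293T and 30 to 39 between the control lines. The 8 calls of a difference between the lines depended most on the processing. They were 3 with a pseudocount of 0.1, 5 with a mean of at least 1 FPKM required, 5 after quantile normalization, 5 in TPM and 4 with limma-voom, of which 2 were higher (STAT2, EIF2AK2), and 5 to 10 when 1 library was left out, lowest without A549 exposed replicate 2 and highest without A549 exposed replicate 3. With limma-voom the differences of IFIT2 (0.27) and IFI44 (0.71) changed sign, at 0 to 13 fragments in each 293T library. Deviations of same-numbered exposed and control libraries correlated at -0.141 to 0.000139. No pairing by replicate number was therefore seen, but this cannot show how the libraries were prepared. With the replicate block the calls were 20 in A549, 9 in 293T, 6 for the difference and 36 between the controls. Median centring gave 2695 higher and 2525 lower calls over all genes in A549, beside 1837 and 3711. Genes near 0 in 293T limit what the comparison of the lines can show.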
